A study of Mus musculus with 9 samples.

Results

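Livers titled as treated with an antibody to the glucagon receptor were set directly against livers titled as Gcgr knockout. The 6 libraries were taken by their titles, 3 antibody-labelled and 3 knockout-labelled, of 9 in all. The other 3 came from wild-type mice. They entered the fit for its estimate of the spread and are given below as a point of comparison. By the labels, antibody-labelled mice were Gcgr+/+ and received a monoclonal antibody against the glucagon receptor, humanized, at 10 mg/kg per injection. Knockout-labelled mice are labelled Gcgr-/- and PBS-treated, a genotype that the level of Gcgr given below goes against. Wild-type mice were Gcgr+/+ and received PBS. All mice were male C57Bl6 of 16 to 20 weeks that had fasted for 6 h, and injections went into the peritoneum weekly over 10 days. RNA came from liver pieces of about 100 mg and was sequenced as poly(A)-selected libraries, to a depth the labels give as 50 M paired-end reads, each 50 bp long. The labels say neither which part of Gcgr is disrupted nor whether the knockout is confined to a cell type. They do not state that each library is a separate animal, so p-values measure the spread between these libraries, which may be technical in part.

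Glucagon is the hormone of pancreatic alpha cells that makes the fasting liver release glucose. Its receptor, a G protein-coupled receptor found mainly on hepatocytes, raises cyclic AMP, which activates protein kinase A and the transcription factor CREB. In hepatocytes this signal raises the genes of gluconeogenesis, of amino acid breakdown and of urea synthesis, and it favours fatty acid oxidation over lipid synthesis. An antibody blocks the receptor protein while the gene stays intact, whereas a knockout disrupts the gene itself. The submitters chose these models because pancreatic alpha cells divide more in both. The direct contrast asks in which liver genes they differ.

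Values are the deposited normalized counts per gene, which have a floor of 1. The libraries held an estimated 22.8, 24.5 and 25.2 M reads assigned to genes in the antibody-labelled group, and 10.99, 25.7 and 21.6 M in the knockout-labelled group. The wild-type libraries held 21.7 to 30.1 M. Knockout-labelled library 1 had the fewest reads and stood apart from the rest, at 84.3 on the first principal component (22.9% of the variance), whereas the remaining 8 ran from -19.2 to 1.71. On the second component (16.3%) antibody-labelled libraries ran from 27.0 to 36.2, knockout-labelled ones from -2.62 to 2.39 and wild-type ones from -34.8 to -28.9. No batch is labelled.

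The knockout-labelled libraries also differed by transcript length. Each library's deviation from the mean of all 9 was followed over 12786 genes sorted by their longest annotated transcript. The median deviation of the longest quintile of genes minus that of the shortest quintile was 0.06, 0.05 and 0.11 on the log2 scale in antibody-labelled libraries 1 to 3. It was -0.26, 0.04 and -0.30 in knockout-labelled libraries 1 to 3, and 0.13, 0.01 and 0.12 in the wild-type libraries. Knockout-labelled libraries 1 and 3 were thus the ones with long transcripts low and short transcripts high, and knockout-labelled library 2 lay among the other 6. In the direct contrast the median log2 fold change was -0.09 in the shortest quintile (up to 1698 bases) and 0.17 in the longest (from 5111 bases), against 0.02 over all genes tested. For that reason most calls below are given beside their value after the length trend of every library was taken out, an alternative chosen after the data had been seen.

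**Figure D1:**
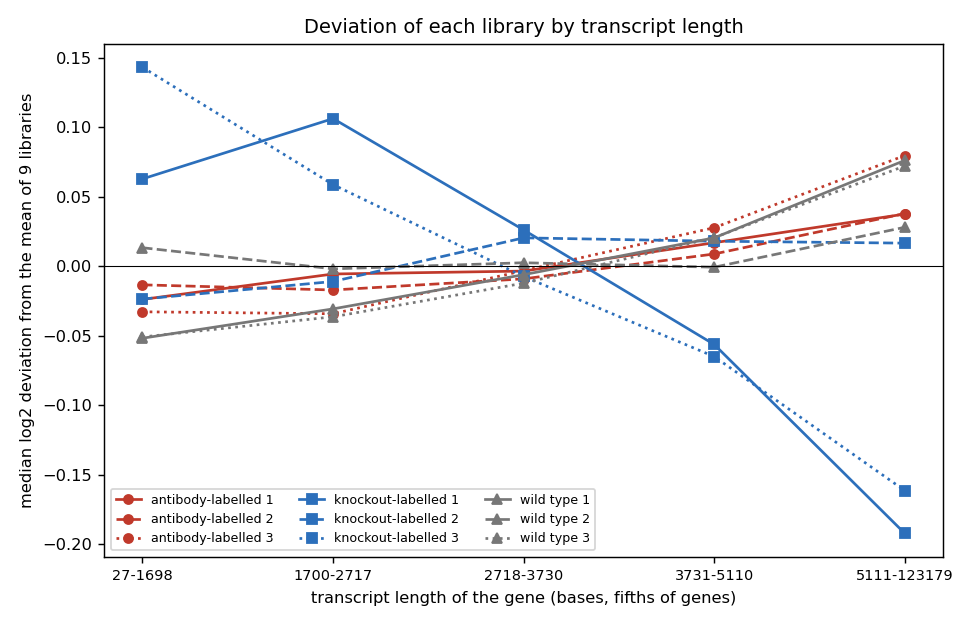
Median log2 deviation of each library from the mean of the 9 libraries (y axis) over quintiles of genes by transcript length in bases (x axis), for 3 antibody-labelled, 3 knockout-labelled and 3 wild-type libraries. Knockout-labelled libraries 1 and 3 fall from left to right to -0.19 and -0.16 in the longest quintile, while the other 7 libraries lie between 0.02 and 0.08 there.

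Gcgr, the glucagon receptor gene, was far lower in the antibody-labelled libraries. Gcgr (ENSMUSG00000025127) spans bases 120392013 to 120400402 of mm9 chromosome 11 on the plus strand. It had 2271, 2496 and 1808 normalized counts in antibody-labelled libraries 1 to 3. Its counts were 27365, 19656 and 21128 in knockout-labelled libraries 1 to 3, and 19547, 17565 and 18450.5 in wild type. All 3 antibody-labelled libraries were low, and every knockout-labelled library lay above every wild-type library. The log2 fold change of antibody-labelled over knockout-labelled was -3.37 (SE 0.15, limma, Benjamini-Hochberg adjusted p = 8.37e-07). This was the smallest p of the contrast and is the opposite of the order that the labels would give. The knockout label was therefore not borne out by the gene's own level, although a value per gene does not show a small deletion. The titles of these 2 groups may be exchanged, which was not tested and cannot be settled from the values. The groups are called by their labels throughout, and an exchange would turn every direction and every split into higher and lower given here. Gcgr overlaps Gm11789 on the other strand, which averaged 1700.0 ± 215 normalized counts in antibody-labelled and 2602 ± 147 in knockout-labelled samples (SD, n = 3 each) and did not pass (limma adjusted p = 0.0554). The sources used here do not say whether reads were counted by strand, so reads of the 2 genes may not be separable. In liver RNA, fewer cells of a type and less RNA per cell cannot be told apart.

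Outside Gcgr few genes passed the threshold, which with 3 libraries a group does not show that the rest are equal. Of 20029 genes tested, 56 passed an adjusted p of 0.05 with limma (0.28%), of which 38 were higher (0.19%) and 18 lower (0.0899%) in antibody-labelled libraries. An unadjusted p under 0.05 was reached by 2666 (13.3%). The libraries of the groups did not overlap in 3444 genes (17.2%), and in all 56 that passed. The antibody-labelled group against wild type gave 268 genes (1.34%) and the knockout-labelled group against wild type 31 (0.155%). These comparisons share libraries with the direct one. Gcgr alone kept its call when any of the 9 libraries was left out. Of the other 55 genes, 8 lost it whichever library was left out. The 56 calls became 4, 1 and 13 without antibody-labelled libraries 1 to 3, and 6, 82 and 43 without knockout-labelled libraries 1 to 3. They became 14, 17 and 50 without wild-type libraries 1 to 3.

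**Figure D2:**
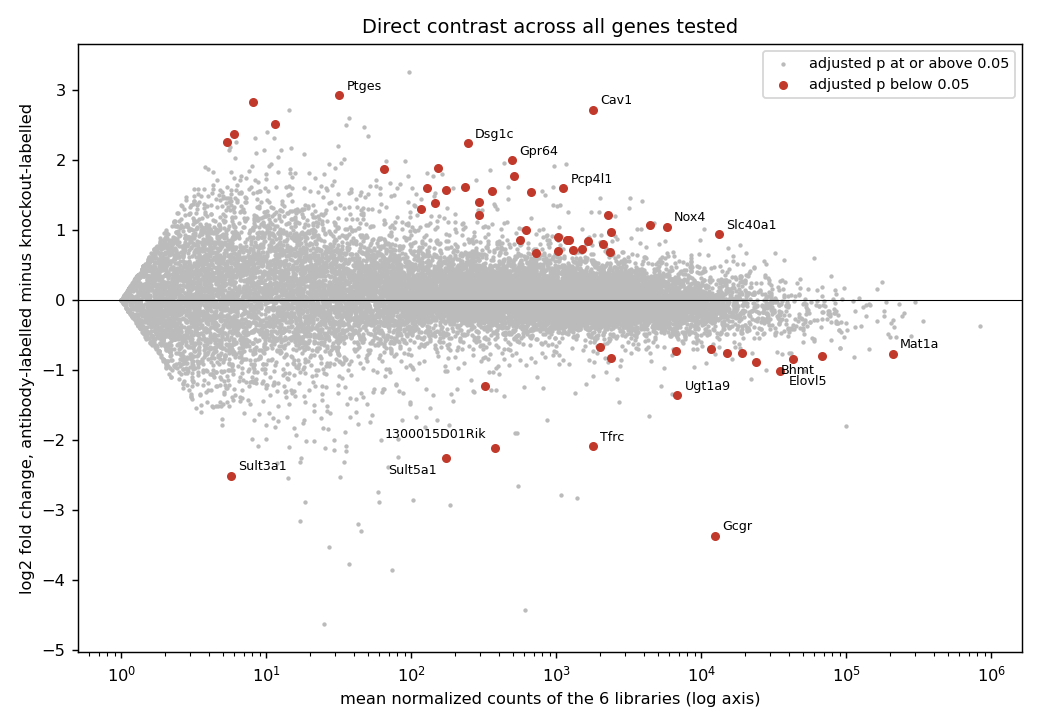
Log2 fold change of antibody-labelled minus knockout-labelled libraries (y axis) against the mean normalized counts of the 6 libraries (x axis, log scale) for the 20029 genes tested. The 56 genes past an adjusted p of 0.05 are in red, with Gcgr the lowest of them at -3.37 and Cav1 high among them at 2.72.

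The 18 lower genes included enzymes of methionine, lysine and isoleucine metabolism. Mat1a makes S-adenosylmethionine, the methyl donor of the cell, from methionine in liver. It had 157372, 148966 and 158498 normalized counts in antibody-labelled libraries and 282462, 264824 and 244568 in knockout-labelled libraries. Wild type held 328508, 267496 and 327517, so the antibody-labelled libraries were the low ones. Mat1a fell by 0.77 on the log2 scale (SE 0.13, limma adjusted p = 0.0469). Aass, the enzyme that opens lysine breakdown, had 16316, 18435 and 15229 normalized counts in antibody-labelled libraries and 28311, 35744 and 28281 in knockout-labelled libraries. Wild type held 37352, 36286 and 39375, above both groups with no overlap. Aass fell by 0.88 (SE 0.13, limma adjusted p = 0.0267, and 0.0235 with the length trend removed, against 0.0556 for Mat1a). Hsd17b10, a mitochondrial dehydrogenase of isoleucine breakdown, fell by 0.76 (limma adjusted p = 0.047, and 0.0678 with the length trend removed). Its values were 12432 to 15855 normalized counts in antibody-labelled and 20499 to 27562 in knockout-labelled libraries.

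Bhmt remakes methionine from homocysteine with betaine as the methyl donor. It had 54921, 43905 and 50970.2 normalized counts in antibody-labelled libraries and 82346, 87145 and 91200.1 in knockout-labelled libraries, against 59499, 45836 and 62175 in wild type. Here the knockout-labelled libraries were the high ones, and the antibody-labelled and wild-type libraries overlapped. Bhmt fell by 0.80 on the log2 scale (SE 0.14, limma adjusted p = 0.047, and 0.055 with the length trend removed). Its near-copies Bhmt-ps1 and Gm5096 fell by 0.82 (limma adjusted p = 0.0356) and 0.84 (adjusted p = 0.0372). They cannot be taken as separate results. In the GENCODE M21 transcripts (GRCm38), Bhmt-ps1 matched 1211 of the 1224 coding bases of Bhmt (98.94%) and Gm5096 matched 1220 (99.67%), so a short read may fit more than 1 of them. GENCODE gives Bhmt-ps1 another gene ID than the deposited table does, and it was matched by name. A stretch of the coding sequence, from coding base 520 to 639 as transcribed, is shown because it holds 5 of the 13 bases that set Bhmt-ps1 apart. Capitals mark the bases that differ.
Bhmt: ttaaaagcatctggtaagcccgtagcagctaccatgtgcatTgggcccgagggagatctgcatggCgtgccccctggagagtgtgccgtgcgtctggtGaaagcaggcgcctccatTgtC
Bhmt-ps1: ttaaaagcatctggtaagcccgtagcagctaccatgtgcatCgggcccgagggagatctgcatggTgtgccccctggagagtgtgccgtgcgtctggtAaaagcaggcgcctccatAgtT

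Over the whole list of amino acid catabolism, 3 of 57 genes tested fell (Aass, Mat1a and Bhmt), 0 rose and 54 did not pass, beside 18 lower and 38 higher of 20029 over all genes tested. Its median log2 fold change was -0.24, with 51 genes negative, beside 0.02 and 9316 of 20029 genes negative over all genes tested. With the length trend removed the list's median was -0.20 and Aass alone passed. The summed value of 12 hepatocyte markers was 1837675 to 1987158 normalized counts above the floor in antibody-labelled libraries, 1912871 to 3040020 in knockout-labelled and 1907909 to 2295265 in wild-type libraries. Its part in these differences was not tested. The call of Bhmt was lost whichever library was left out (limma adjusted p = 0.0537 to 0.189). Mat1a kept its call only without knockout-labelled library 2, with adjusted p from 0.0475 to 0.182 over the 9 fits. Aass lost it in 6 of the 9 fits, those that left out an antibody-labelled library, knockout-labelled library 1, wild-type library 1 or wild-type library 2 (limma adjusted p = 0.0529 to 0.107).

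Among enzymes that attach sugar or sulfate groups for excretion, Ugt1a9, Sult5a1 and Sult3a1 fell. Ugt1a9 encodes a glucuronosyltransferase, which joins glucuronic acid to drugs, steroids and bile pigments. It had 3771, 3921 and 3795 normalized counts in antibody-labelled libraries and 10382, 10524 and 8595 in knockout-labelled libraries, against 9881, 8465 and 13143 in wild type. The 3 antibody-labelled values were nearly the same, and all 6 others were more than 2-fold higher. Ugt1a9 (mm9 chromosome 1, 89967375 to 90115572, plus strand) fell by 1.35 on the log2 scale, the second smallest p of the contrast (SE 0.15, limma adjusted p = 0.0119, and 0.0208 with the length trend removed). Leaving out antibody-labelled library 1 or 2, or knockout-labelled library 1, ended its call (limma adjusted p = 0.0503 to 0.0963). The Ugt1a genes share their last exons and differ in the first, so counting can split reads among them. The neighbours that overlap Ugt1a9 did not pass with limma. Ugt1a1, which conjugates bilirubin, stood at 0.09 (adjusted p = 0.794), Ugt1a6a at 0.45 (adjusted p = 0.166) and Ugt1a5 at 0.26 (adjusted p = 0.792).

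Sult5a1 and Sult3a1 encode cytosolic sulfotransferases. Sult5a1 had 84.6, 45.6 and 41.5 normalized counts in antibody-labelled libraries and 291, 143 and 435 in knockout-labelled libraries, against 401, 287 and 383 in wild type. All antibody-labelled values were lower than all others. Sult5a1 fell by 2.25 on the log2 scale (SE 0.38, limma adjusted p = 0.047, and 0.0634 with the length trend removed), and its call held without knockout-labelled library 2 and in none of the other 8 fits that left out a library (adjusted p = 0.0555 to 0.189). It lies within Gm20388 on the other strand, which averaged 3248 ± 315 normalized counts in antibody-labelled livers and 3216 ± 190 in knockout-labelled livers (SD, n = 3 each). Sult3a1 was at the floor in all 3 antibody-labelled libraries and had 9.49, 11.2 and 10.6 normalized counts in knockout-labelled libraries, which is a few reads each, so no fold is given (limma adjusted p = 0.0356). Wild type held 4.36, 1.504 and 2.02. The call ended without any 1 antibody-labelled library and without knockout-labelled libraries 1 or 3 (limma adjusted p = 0.0540 to 0.155). Of 45 conjugation enzymes tested these 3 fell, 0 rose and 42 did not pass, beside 18 of 20029 genes that fell over all genes tested. The list's median was 0.07 (0.14 with the length trend removed), and 25 of its genes were positive.

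Of 29 iron and haem genes tested, 1 passed as lower and 1 as higher, beside 18 lower and 38 higher of 20029 over all genes tested. Tfrc encodes the transferrin receptor, which takes iron into cells. It had 593, 577 and 731 normalized counts in antibody-labelled libraries and 2117, 4744 and 1931 in knockout-labelled libraries, against 2399.9, 1781 and 2404 in wild type. The antibody-labelled libraries were low, and knockout-labelled library 2 stood above all others. Tfrc fell by 2.09 on the log2 scale (SE 0.30, limma adjusted p = 0.0435, and 0.0373 with the length trend removed). Slc40a1 encodes ferroportin, the iron exporter of cells. It had 15843, 15985 and 20244 normalized counts in antibody-labelled libraries and 9229, 8363 and 9344 in knockout-labelled libraries, against 11071, 11163 and 8888 in wild type. The antibody-labelled libraries were the high ones, with no overlap. Slc40a1 rose by 0.94 (SE 0.13, limma adjusted p = 0.0267, and 0.0465 with the length trend removed). The other 27 of 29 iron and haem genes tested did not pass, and the list's median was 0.01. Tfrc is also high in erythroid precursors, whose 8 markers summed to 7934 to 13958 normalized counts above the floor in antibody-labelled and 8560 to 12974 in knockout-labelled libraries. Both calls were lost when antibody-labelled library 1, 2 or 3 or knockout-labelled library 1 was left out, and that of Tfrc also when wild-type library 1 or 2 was. In those fits the adjusted p was 0.0588 to 0.175 for Tfrc and 0.0555 to 0.110 for Slc40a1.

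**Figure D3:**
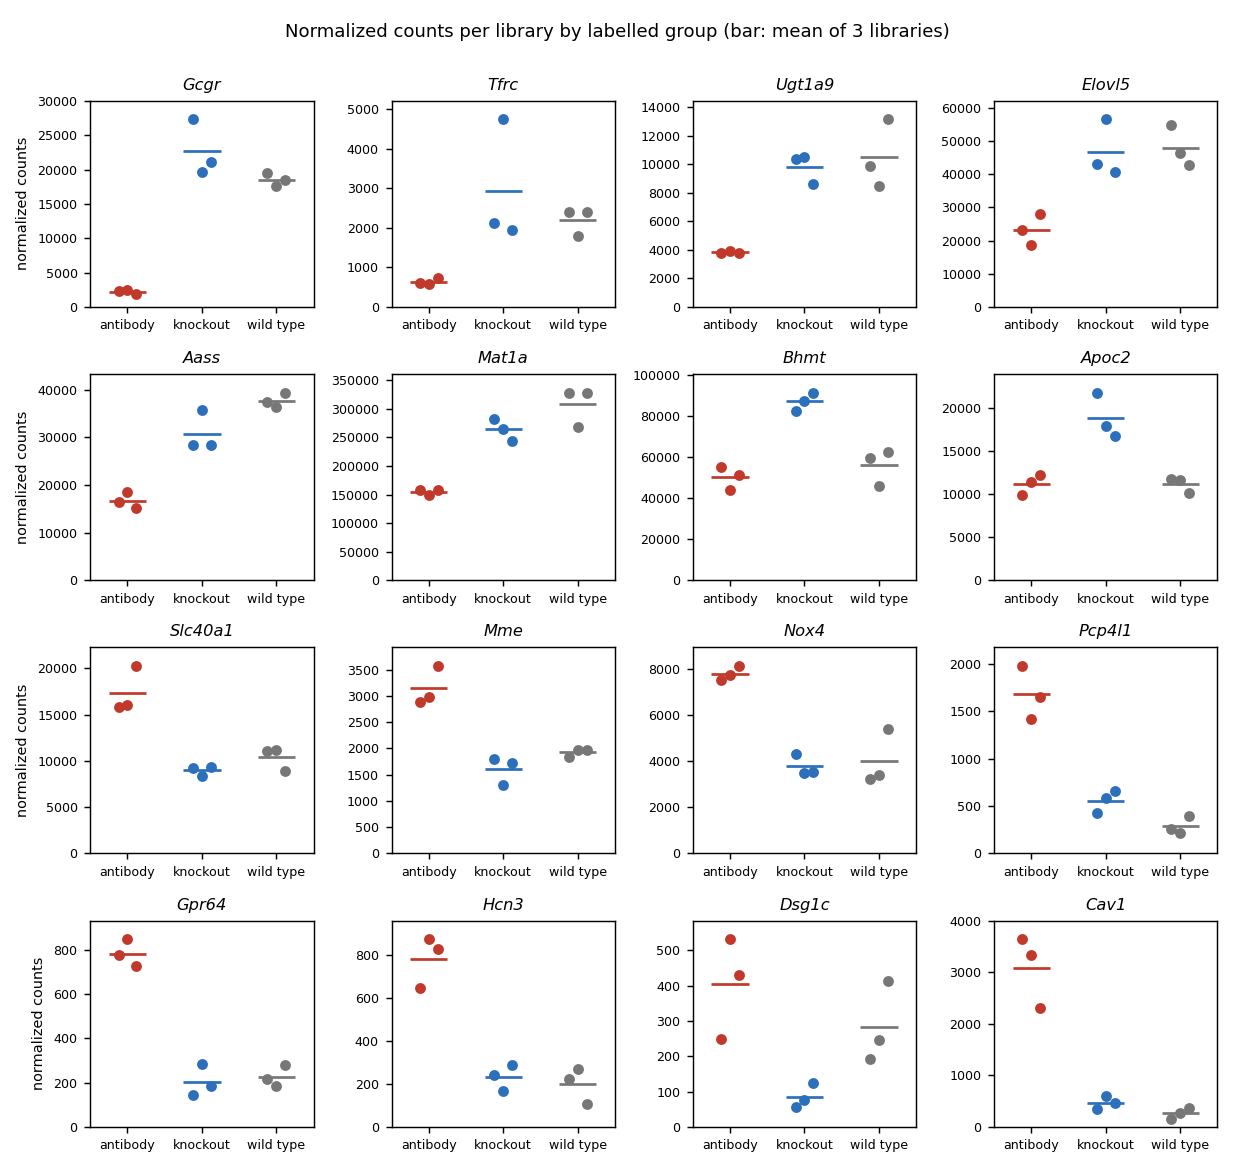
Normalized counts (y axis, linear from 0) of 16 genes past the threshold in each library, by labelled group; bars are means of 3 libraries. Antibody-labelled and knockout-labelled values do not overlap in any panel, while wild type lies with the knockout-labelled libraries in Ugt1a9 and Elovl5 and with the antibody-labelled libraries in Bhmt and Apoc2.

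Genes of lipid handling moved in both directions. Elovl5 encodes the elongase that lengthens polyunsaturated fatty acids. It had 23324, 18686 and 27945 normalized counts in antibody-labelled libraries and 43100.4, 56596 and 40583 in knockout-labelled libraries, against 54802, 46487 and 42730.2 in wild type. The antibody-labelled libraries were low and the other 6 lay together. Elovl5 fell by 1.01 on the log2 scale (SE 0.17, limma adjusted p = 0.047, and 0.066 with the length trend removed). It was the single gene of 25 in the fatty acid synthesis list that passed, beside a list median of 0.04. Apoc2, the activator of lipoprotein lipase, had 9852, 11357 and 12174 normalized counts in antibody-labelled libraries and 21808, 17887 and 16731 in knockout-labelled libraries, against 11809, 11677 and 10093 in wild type. Here the knockout-labelled libraries were high and the other 6 overlapped. Apoc2 fell by 0.75 (SE 0.13, limma adjusted p = 0.047, and 0.0913 with the length trend removed), and its longest transcript is 727 bases, in the shortest quintile. It overlaps Apoc4 on the same strand, at 16220 ± 274 in antibody-labelled and 21754 ± 4042 normalized counts in knockout-labelled libraries (SD, n = 3 each).

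Fabp5, a fatty acid binding protein of skin and fat, and Abca8a, a lipid transporter of the ABC family, were higher. Fabp5 had 385, 462 and 789 normalized counts in antibody-labelled libraries and 189.6, 199 and 142 in knockout-labelled libraries (log2 fold change 1.57, SE 0.27, limma adjusted p = 0.047). Abca8a had 5541, 6221 and 6270.1 normalized counts in antibody-labelled libraries and 3465, 2299 and 2925 in knockout-labelled libraries (log2 fold change 1.07, SE 0.15, limma adjusted p = 0.0267). In neither gene did the groups overlap. With the length trend removed the adjusted p was 0.0634 for Fabp5 and 0.066 for Abca8a. The calls of Elovl5, Apoc2 and Fabp5 were lost whichever library was left out, with adjusted p from 0.0527 to 0.182, from 0.0502 to 0.182 and from 0.0561 to 0.164. That of Abca8a was lost without any 1 antibody-labelled library (limma adjusted p = 0.0555 to 0.147).

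Of the genes that passed, Cav1 rose most among those above the median level of tested genes. Cav1 encodes caveolin 1, the coat protein of caveolae, the small membrane pits of endothelial, fat and muscle cells. It had 3644, 3329.7 and 2309.6 normalized counts in antibody-labelled libraries and 349.8, 607 and 454 in knockout-labelled libraries, against 159, 274 and 372 in wild type. Antibody-labelled libraries were several-fold above all others, and knockout-labelled and wild-type libraries overlapped. Cav1 rose 6.61-fold (log2 fold change 2.72, SE 0.31, limma adjusted p = 0.0265, and 0.0235 with the length trend removed). Leaving out antibody-labelled libraries 1 or 2 or knockout-labelled library 1 ended the call (adjusted p = 0.0555 to 0.107). The other 9 caveola genes tested did not pass, and the list's median was 0.07. Sinusoidal endothelial markers summed to 35451 to 38495 normalized counts above the floor in antibody-labelled libraries, 33052 to 37886 in knockout-labelled and 30908 to 34757 in wild-type libraries. Their antibody-labelled and knockout-labelled ranges overlap, and 0 of the 12 markers passed.

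The genes around Cav1 were also followed. On mm9 chromosome 6, Tes (17015149 to 17055828, plus strand), Cav2 (17231185 to 17239115) and Cav1 (17256335 to 17291452) lie in that order. Tes, a protein of actin-rich adhesion sites, had 225, 318 and 174 normalized counts in antibody-labelled libraries and 85.1, 67.3 and 41.1 in knockout-labelled libraries. Its groups did not overlap, and it rose by 1.89 on the log2 scale (SE 0.33, limma adjusted p = 0.047, and 0.0634 with the length trend removed). Cav2, the partner of caveolin 1, had 519.5, 674 and 555 normalized counts in antibody-labelled libraries and 247, 406 and 323 in knockout-labelled libraries. Its groups did not overlap either, but it did not pass (log2 fold change 0.86, SE 0.19, adjusted p = 0.0802, and 0.0475 without knockout-labelled library 2). Further along, Met (17413800 to 17523980), the receptor of hepatocyte growth factor, stood at 0.19 (adjusted p = 0.480). Before Tes lies Tfec (16783381 to 16848441), at 0.28 (adjusted p = 0.650). Met and Tfec were picked for their position after the values of Cav1 and Tes had been seen. Tes kept its call only without wild-type library 3, with adjusted p up to 0.189 in the other fits.

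Gpr64, Pcp4l1 and Ptges rose, and all 3 kept their call with the length trend removed. Gpr64, an adhesion G protein-coupled receptor on the X chromosome, had 777, 849 and 726 normalized counts in antibody-labelled libraries and 142, 284 and 184 in knockout-labelled libraries, against 215, 186 and 280.4 in wild type. All antibody-labelled values were more than 2-fold above all others. Gpr64 rose by 2.00 on the log2 scale (SE 0.24, limma adjusted p = 0.0158, and 0.0208 with the length trend removed). Pcp4l1, a small protein related to the calmodulin-binding protein Pcp4, had 1975, 1421 and 1643 normalized counts in antibody-labelled libraries and 427, 584 and 662 in knockout-labelled libraries, against 254, 221 and 396 in wild type. The 3 groups followed each other in that order with no overlap. Pcp4l1 rose 3.03-fold (log2 fold change 1.60, SE 0.23, limma adjusted p = 0.0267, and 0.0373 with the length trend removed). Ptges, the synthase of prostaglandin E2, had 48.9, 56.6 and 65.4 normalized counts in antibody-labelled libraries and 4.74, 6.88 and 8.45 in knockout-labelled libraries, which is 1 to a few reads in the second group. It stood at 2.93 (SE 0.41, limma adjusted p = 0.0267, and 0.0373 with the length trend removed). For Gpr64 the call ended when antibody-labelled library 1 or 2 was left out (limma adjusted p = 0.0555 to 0.107). Those of Pcp4l1 and Ptges were lost without any 1 antibody-labelled library and without knockout-labelled library 1, at adjusted p of 0.0717 to 0.107 and 0.0622 to 0.134.

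Nox4 encodes an NADPH oxidase that makes hydrogen peroxide. It had 7538, 7736 and 8145 normalized counts in antibody-labelled libraries and 4336, 3497 and 3528 in knockout-labelled libraries, against 3225, 3400.4 and 5415 in wild type. Every antibody-labelled library was above every other, and Nox4 rose 2.07-fold (log2 fold change 1.05, limma adjusted p = 0.0443). Mme, the surface peptidase neprilysin, had 2877, 2980.4 and 3570.3 normalized counts in antibody-labelled libraries and 1798, 1298 and 1721 in knockout-labelled libraries. It rose 1.97-fold (log2 fold change 0.98, limma adjusted p = 0.0267). Neither passed with the length trend removed, at adjusted p of 0.0634 for Nox4 and 0.1004 for Mme. Nox4 kept its call in 1 and Mme in 5 of the 9 fits that left out a library, with adjusted p up to 0.165 and 0.116. Nrp2 and Plxna2, receptors for guidance molecules of the semaphorin family, rose as well, by 0.81 (limma adjusted p = 0.0469) and 0.85 (limma adjusted p = 0.0283). Of the 9 fits that left out a library, Nrp2 lost its call in 8 and Plxna2 in 4. Their longest transcripts are 6723 and 11040 bases, and with the length trend removed they stood at 0.63 (adjusted p = 0.0678) and 0.59 (adjusted p = 0.134).

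Hcn3, a cation channel opened by hyperpolarization, had 647, 875 and 832 normalized counts in antibody-labelled libraries and 243, 167 and 287 in knockout-labelled libraries (log2 fold change 1.78, SE 0.31, limma adjusted p = 0.0492). It overlaps Pklr on the other strand by 711 bases. Pklr, liver pyruvate kinase, had 12551 ± 821 normalized counts in antibody-labelled and 6912 ± 705 in knockout-labelled livers (SD, n = 3 each), with no overlap, and did not pass (log2 fold change 0.86, adjusted p = 0.0668, and 0.0217 without wild-type library 3). Reads of Hcn3 and Pklr may not be separable there. Of the 56 genes, 14 overlap another tested gene, 13 of them one on the other strand. Among the lower genes of that kind was 1300015D01Rik, an antisense RNA over Ctcfl. It had 214, 153 and 81.0 normalized counts in antibody-labelled libraries and 617, 661 and 544 in knockout-labelled libraries, against 1469.7, 1257 and 1359 in wild type. The 3 groups did not overlap, and the RNA fell by 2.12 on the log2 scale (SE 0.27, limma adjusted p = 0.0267, and 0.0235 with the length trend removed). Tmprss2, a surface serine protease of epithelia, had 147, 208 and 223 normalized counts in antibody-labelled libraries and 465, 476 and 402 in knockout-labelled libraries. It fell by 1.23 (SE 0.22, limma adjusted p = 0.047, and 0.0465 with the length trend removed). Its call was lost whichever library was left out (adjusted p = 0.0588 to 0.164). That of Hcn3 held without wild-type library 3 and in none of the other 8 fits (adjusted p = 0.0586 to 0.189).

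S100a10, Ppa1 and Pqbp1 complete the lower genes. S100a10, a calcium-binding partner of annexin A2, had 5139.7, 5201 and 4678 normalized counts in antibody-labelled libraries and 9125, 8675 and 7134 in knockout-labelled libraries, against 5055, 5792 and 4837 in wild type. The knockout-labelled libraries were the high ones, and S100a10 fell by 0.72 on the log2 scale (limma adjusted p = 0.0443, and 0.0807 with the length trend removed). Ppa1, a cytosolic pyrophosphatase, fell by 0.70 (adjusted p = 0.0492) and Pqbp1, a splicing-associated protein, by 0.67 (adjusted p = 0.047). With the length trend removed neither passed, at adjusted p of 0.0953 for Ppa1 and 0.0921 for Pqbp1.

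Further genes that rose were Dsg1c, Epb4.1l1, Prg4, Mapre2 and 2810474O19Rik. Dsg1c, a desmosomal cadherin, had 250.2, 532 and 430.3 normalized counts in antibody-labelled libraries and 56.8, 74.8 and 123 in knockout-labelled libraries, against 191, 246 and 412 in wild type. The knockout-labelled libraries were the low ones, and the others overlapped. Dsg1c rose by 2.24 on the log2 scale (SE 0.36, limma adjusted p = 0.0459, and 0.0634 with the length trend removed). Epb4.1l1, a protein that ties membrane proteins to the spectrin skeleton, had 747, 1157 and 1051 normalized counts in antibody-labelled libraries and 431, 409 and 207 in knockout-labelled libraries (log2 fold change 1.54, limma adjusted p = 0.045). Its groups did not overlap. Prg4, the lubricating glycoprotein lubricin, rose by 0.84 (adjusted p = 0.0443) and Mapre2, which binds microtubule ends, by 0.72 (adjusted p = 0.0492). With the length trend removed, Epb4.1l1, Prg4 and Mapre2 did not pass (limma adjusted p = 0.066, 0.0634 and 0.0746). Their calls were lost in 7, 8 and 8 of the 9 fits that left out a library. The uncharacterised gene 2810474O19Rik had 3086, 3637 and 2774 normalized counts in antibody-labelled libraries and 1618, 1226 and 1250.0 in knockout-labelled libraries (log2 fold change 1.22, SE 0.16, limma adjusted p = 0.0267, and 0.055 with the length trend removed).

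Besides Sult3a1, the genes Sall4, Cd209g, Trim66 and Gm17515 passed at very low levels. Sall4, a transcription factor of the embryonic liver, had 7.83, 27.2 and 10.5 normalized counts in antibody-labelled libraries. It was at the floor in all 3 knockout-labelled libraries, so no fold is given (limma adjusted p = 0.0417). Wild type held 2.12, 1 and 1. Sall4 thus met the filter only through the group where it was high, and its adjusted p lends the difference no support. Cd209g, a lectin receptor, had 17.5, 25.9 and 17.2 in antibody-labelled libraries, and 4.70, 3.20 and the floor of 1 in knockout-labelled libraries. Since 1 read was worth 1.504 to 4.743 normalized counts, these levels are a handful of reads.

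The remaining higher genes included several with long transcripts. Vps13c, a lipid transfer protein between organelles (11527 bases), Spnb1, the beta chain of erythrocyte spectrin (10394 bases), Atm, the DNA damage kinase (9819 bases) and Ppm1l, a protein phosphatase (9417 bases), rose by 0.69, 1.39, 0.86 and 0.70 on the log2 scale. With the length trend removed they stood at 0.42, 1.14, 0.62 and 0.47 and did not pass (limma adjusted p = 0.102, 0.134, 0.102 and 0.137). Vps13c had 3002, 2933 and 2778 normalized counts in antibody-labelled libraries and 1691, 2046 and 1695 in knockout-labelled libraries, against 3080.1, 2995 and 2804 in wild type. There the knockout-labelled libraries were low and the other 6 lay together. The median longest transcript was 5102 bases in the higher genes and 2502 in the lower genes, against 3189 over the 12786 genes of the trend. Of the 33 higher genes in the trend, 17 lay in the longest quintile and 3 in the shortest.

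With the length trend removed from every library, 14 genes passed (0.0699%), 6 higher and 8 lower, against 38 and 18. Of the 56 genes, 13 kept their call, 6 higher and 7 lower, and 0 of the 56 turned their direction. The 6 were Cav1, Gpr64, Pcp4l1, Ptges, Slc40a1 and Gm13152, a predicted gene at 1.01 (adjusted p = 0.047). The 7 were Gcgr, Tfrc, Ugt1a9, 1300015D01Rik, Tmprss2, Aass and Bhmt-ps1, which has no transcript length and was left as it was. The gene gained, outside the rule for named genes, was Smarcb1, a subunit of SWI/SNF chromatin remodelling complexes. It had 1006, 984 and 1014 normalized counts in antibody-labelled libraries and 1404, 1415 and 1368 in knockout-labelled libraries (log2 fold change -0.48, adjusted p = 0.0679, and -0.67, adjusted p = 0.0465, with the length trend removed). The share of higher genes among those that passed was 67.9% as deposited and 42.9% with the trend removed.

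**Figure D4:**
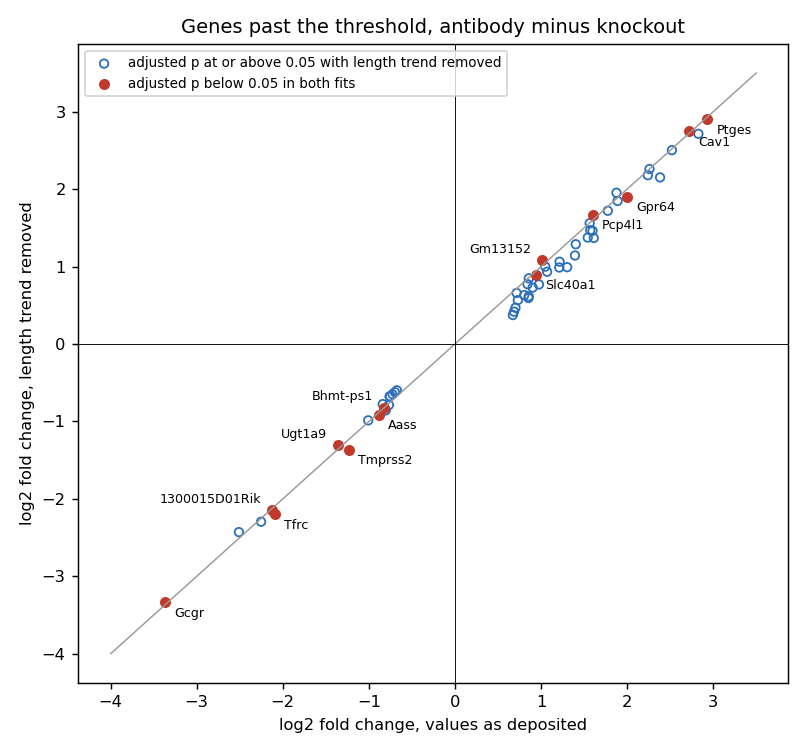
Log2 fold change of antibody-labelled minus knockout-labelled libraries in values as deposited (x axis) and with each library's length trend removed (y axis) for the 56 genes past the threshold; the line marks equal values. Filled points passed in both fits (13 genes) and open points in the first alone, and no point changes sign.

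Wild type lay on different sides of the contrast in different genes. In 29 of the 56 genes only the antibody-labelled libraries were apart from wild type with no overlap, as in Ugt1a9, Elovl5, Cav1 and Slc40a1. In 15 only the knockout-labelled libraries were apart, as in Bhmt, Apoc2 and Vps13c. In 12 both were, as in Aass, Pcp4l1 and Gcgr. Over all genes tested these shares were 13.2%, 10.5% and 5.94%. Against wild type, 31 of the 56 passed in the antibody-labelled group, 3 in the knockout-labelled group and 0 in both. The 3 were F830016B08Rik, Ppm1l and Vps13c, which are all lower in the knockout-labelled group. These comparisons share libraries with the direct one, so they describe where the groups lay and lend it no support. Ppm1l and Vps13c have long transcripts, of 9417 and 11527 bases, and the part of the length trend in their position was not tested.

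Targets of the glucagon signal mostly had negative values and did not pass. In the list of the glucagon receptor cascade, from G protein to CREB cofactors, Gcgr was the single gene of 29 that passed, beside a median of 0.09 (-0.05 with the length trend removed). Of 26 genes known to be induced by cyclic AMP, 0 passed, with 23 negative and a median log2 fold change of -0.48, beside 0.02 over all genes tested. Pck1, which commits carbon to glucose production, had 141426, 93524 and 87062 normalized counts in antibody-labelled libraries and 260893, 155324 and 122107 in knockout-labelled libraries. The groups overlapped (log2 fold change -0.70, SE 0.30, adjusted p = 0.338). G6pc, which releases glucose, stood at -0.19 (adjusted p = 0.854), and Igfbp1 at -0.28 (adjusted p = 0.877). Of 18 gluconeogenesis genes 0 passed, 16 were negative and the median was -0.38. Of 8 urea cycle genes 0 passed, all 8 were negative and the median was -0.32. Of the 12 hepatocyte markers, which include Cps1, 11 were negative too, with a median of -0.31. With the length trend removed the hepatocyte markers had a median of -0.23. The same value was -0.45 for the cyclic AMP-induced genes, -0.33 for gluconeogenesis and -0.33 for the urea cycle. The part of the glucagon signal in these values was not tested. Asl, which splits argininosuccinate, had 31570.0, 34461 and 34263 normalized counts in antibody-labelled libraries and 91703, 47671 and 69212 in knockout-labelled libraries, with no overlap (log2 fold change -1.01, SE 0.20, adjusted p = 0.0668). Ass1 stood at -0.65 (adjusted p = 0.149) and Cps1 at -0.52 (adjusted p = 0.282). Without knockout-labelled library 2, Asl and Ass1 passed (limma adjusted p = 0.0178 and 0.0475).

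Several genes with large differences missed the threshold. Nnmt, which methylates nicotinamide, had 62.1, 30.2 and 59.4 normalized counts in antibody-labelled libraries and 1422, 537 and 1543 in knockout-labelled libraries, against 5869, 5396 and 1141 in wild type. The groups were wide apart, and the values within the knockout-labelled and wild-type groups varied several-fold (log2 fold change -4.43, SE 0.72, limma adjusted p = 0.0679). Zap70, the T cell kinase that acts on the antigen receptor, had 62.1, 41.1 and 21.8 normalized counts in antibody-labelled libraries and 226, 214 and 551 in knockout-labelled libraries (log2 fold change -2.93, SE 0.49, adjusted p = 0.0538). The 18 lymphocyte markers, of which Zap70 is one, summed to 1039 to 1155 normalized counts above the floor in antibody-labelled libraries. In knockout-labelled libraries they summed to 989 to 1519, and 0 of them passed. Zap70 is itself part of these sums, so their ranges do not show how the other markers lay. Of the 18 markers 9 were positive and 9 negative, with a median of 0.10. Got1, the cytosolic aspartate aminotransferase, had 3163, 3438 and 2583 normalized counts in antibody-labelled libraries and 7698, 4513 and 10407 in knockout-labelled libraries, against 32435, 25190.4 and 24708 in wild type. The 3 groups stood in that order with no overlap (log2 fold change -1.23, SE 0.26, adjusted p = 0.0884). Oat, which breaks down ornithine, had 17434, 14690.0 and 10065 in antibody-labelled libraries and 31412, 26745 and 32087 in knockout-labelled libraries (log2 fold change -1.13, SE 0.23, adjusted p = 0.0702). Cyp17a1, a steroid hydroxylase, stood at -2.66 (SE 0.46, adjusted p = 0.0668). Slc25a22, a mitochondrial glutamate carrier, stood at -0.77 (SE 0.14, adjusted p = 0.0503). Leaving out 1 library brought some of these past the threshold. Without wild-type library 3, Nnmt and Zap70 passed (limma adjusted p = 0.0120 and 0.0395). Without knockout-labelled library 2, Got1 and Cyp17a1 passed (limma adjusted p = 0.0120 and 0.0275).

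Other genes of amino acid, water and signal handling in liver did not pass, which does not show that they are equal. Slc7a2, a transporter of cationic amino acids, had 26884, 32022 and 29175 normalized counts in antibody-labelled libraries and 31208, 33497 and 33250.0 in knockout-labelled libraries (log2 fold change -0.16, SE 0.17, adjusted p = 0.733). Wild type held 52505 to 85537, above both. Aqp8, a water channel of the bile canaliculus, had 4588, 4279.9 and 4178 normalized counts in antibody-labelled libraries and 2189.8, 3251 and 3035 in knockout-labelled libraries (log2 fold change 0.64, SE 0.18, adjusted p = 0.161), and wild type held 663 to 1060.3. Rgs16, a brake on G protein signalling, had 35719.9 to 47580.2 normalized counts in antibody-labelled and 23026 to 28237 in knockout-labelled libraries (log2 fold change 0.68, SE 0.42, adjusted p = 0.528), and wild type held 2126 to 7791. Gls2, the liver glutaminase, stood at -0.60 (adjusted p = 0.423), Slc38a4, a transporter of neutral amino acids, at -0.17 (adjusted p = 0.670), Glul, glutamine synthetase, at 0.07 (adjusted p = 0.837) and Igf1 at 0.09 (adjusted p = 0.889). Fgf21, a hormone of the fasting liver, stood at -0.93 (SE 0.66, adjusted p = 0.595), with 1356 normalized counts in knockout-labelled library 2 and 194 to 461 in the other 5 libraries. Slc38a5, a glutamine transporter, was near the floor, with 1.96, 1.73 and 1 normalized counts in antibody-labelled libraries and 1, 8.602 and 4.23 in knockout-labelled libraries (adjusted p = 0.497). Nnt, a mitochondrial transhydrogenase, carries a deletion within the gene in the C57BL/6J substrain. It had 3402 to 4259 normalized counts in antibody-labelled and 3774 to 4902 in knockout-labelled libraries (adjusted p = 0.698). A value per gene need not show such a deletion, so the substrain cannot be read from these counts.

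**Figure D5:**
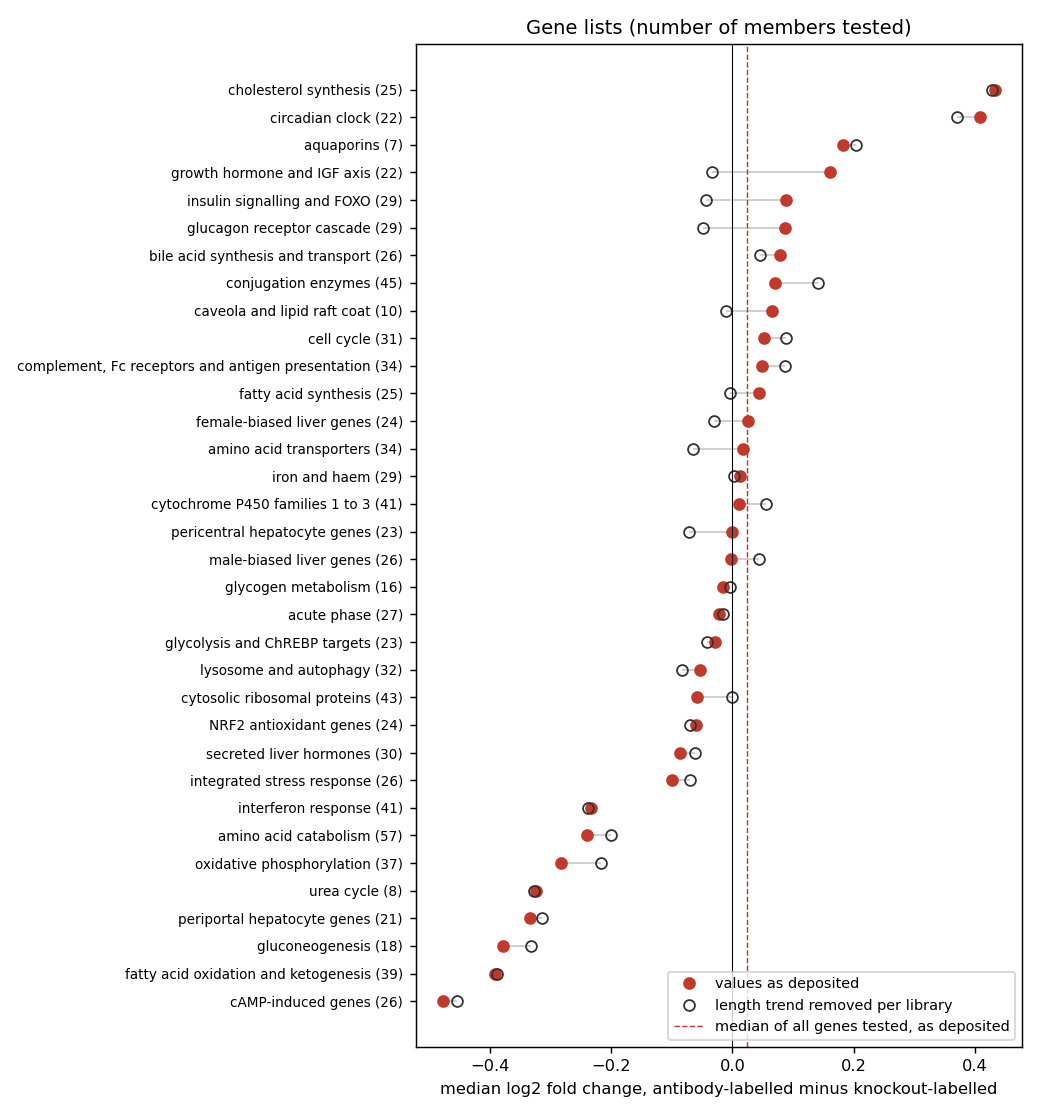
Median log2 fold change of antibody-labelled minus knockout-labelled libraries (x axis) for 34 functional gene lists (y axis, number of members tested in brackets), in values as deposited (filled) and with the length trend removed (open). Cholesterol synthesis (0.43) and the circadian clock (0.41) lie highest and the cyclic AMP-induced genes (-0.48) lowest, and the dashed line marks all genes tested (0.02).

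Lists of mitochondrial and lipid-burning genes had negative medians with no gene past the threshold. All 37 genes of oxidative phosphorylation were negative, with a median of -0.28 (-0.22 with the length trend removed), and their median longest transcript was 1661 bases. The largest difference was that of Cycs, cytochrome c, at -0.55 (adjusted p = 0.186). Of 39 genes of fatty acid oxidation and ketogenesis 35 were negative, with a median of -0.39 in values as deposited and with the length trend removed. Examples were Acaa1a, a peroxisomal thiolase, at -0.54 (adjusted p = 0.0835) and Plin2, the coat protein of lipid droplets, at -0.77 (adjusted p = 0.111, and 0.0453 without knockout-labelled library 3). Of 21 periportal hepatocyte genes Apoc2 alone passed, and the median was -0.33, while that of 23 pericentral genes was -0.001. Hepatocyte markers had a median of -0.31 over 12 genes, with 0 past the threshold. Knockout-labelled library 1 held the highest summed hepatocyte markers of the 9 libraries.

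Cholesterol synthesis had a positive median. Of 25 genes tested 23 were positive and 0 passed, with a median of 0.43 in values as deposited and with the length trend removed. Sqle, squalene epoxidase, had 4825, 1727 and 3853 normalized counts in antibody-labelled libraries and 1611, 2565 and 1269.9 in knockout-labelled libraries (log2 fold change 0.87, SE 0.48, adjusted p = 0.479). Antibody-labelled library 2 was the low one of its group, and the groups overlapped. Fasn, which makes palmitate, stood at 0.24 (adjusted p = 0.749) and Cyp7a1, which opens bile acid synthesis, at 0.48 (SE 0.71, adjusted p = 0.826). The circadian clock list had a median of 0.41, with 16 of 22 positive and 0 past the threshold. Within it Per3, a repressor of the clock, had 1808, 1379 and 389 normalized counts in antibody-labelled libraries and 256, 182 and 798 in knockout-labelled libraries, and Arntl, an activator, had 234, 344 and 949.7 against 1044, 1259 and 579. Antibody-labelled library 3 and knockout-labelled library 3 each lay toward the other group in both genes, which were chosen after their values had been seen (adjusted p = 0.469 and 0.547). Interferon response genes had a median of -0.23, with 33 of 41 negative and 0 past the threshold.

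Across all 47 lists, 965 genes were tested and 12 passed, 2 higher (Cav1 and Slc40a1) and 10 lower, beside 56 of 20029 over all genes tested, 38 higher and 18 lower. The number was 6 with the length trend removed. The lists were chosen with earlier results of these data known, so no share of a list that passed, here or above, is a test. The other functional lists had medians from -0.10 for the integrated stress response to 0.18 for the aquaporins. Among them Sult5a1, a male-biased gene, and Sult3a1, a female-biased gene, were the sole members of the sex-biased lists that passed. Cell type markers, those of hepatocytes included, gave 0 genes past the threshold. Kupffer cell and macrophage markers summed to 33408 to 37084 normalized counts above the floor in antibody-labelled and 29638 to 43764 in knockout-labelled libraries. Stellate cell and fibroblast markers summed to 16084 to 17892 in antibody-labelled and 16115 to 16310 in knockout-labelled libraries. Of 14 pancreatic, 10 skeletal muscle and 8 kidney markers, 11, 8 and 4 were at the floor in all 9 libraries. Alb and the other hepatocyte markers were present in every library, as the liver label has it.

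A disrupted allele carried over from another strain can bring linked alleles, so the genes around Gcgr were set apart. Within 5 Mb on either side 188 genes were tested and 0 passed with limma, beside 0.28% over all genes. An unadjusted p under 0.05 was reached by 24 of them (12.8%), beside 13.3% over all genes. Within 20 Mb 442 were tested and 1 passed, Abca8a. The median absolute log2 fold change was 0.23 within 5 Mb and 0.22 within 20 Mb, against 0.21 over all 20028 genes tested other than Gcgr, flanking genes included. Against wild type, 7 of the 442 genes passed in the antibody-labelled group, the one with Gcgr low, and 3 of them lay within 5 Mb. Over the 20028 genes that number was 267. In the knockout-labelled group 0 of the 442 passed, beside 31 of the 20028. These comparisons share libraries with the direct one. By chromosome, the share of genes that passed was highest on chromosome 18, with 5 of 496 (1.01%), among them Gm5096, a near-copy of Bhmt, beside 0.28% over all genes. No gene passed on chromosomes 5, 15, 17, 19 and Y.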

How the data were processed

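RNA was measured in 9 mouse liver libraries, 3 per labelled group. FastQC, SAMtools, TopHat2 2.0 and the mm9 build are listed in the submitters' processing notes. Neither the counter, nor its use of strand, nor the scaling is given in the sources used here. As deposited, the signal values are the authors' normalized counts per gene, with a floor of 1 and values that are not whole, so a count model was not used. Depth was estimated from the step between low values in each library, and whole reads could not be recovered.

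Genes above 1 in at least 3 of the 9 libraries were tested, 20029 of 37583. Log2(value + 1) was fitted by group in all 9 libraries (limma 3.58.1, R 4.3.3, eBayes with trend and robust estimation, two-sided, Benjamini-Hochberg adjustment over all genes tested, threshold 0.05). Fold changes are on the log2(value + 1) scale and understate the change of low genes. The fit was checked on simulated data. With 3 libraries against 3, an exact permutation test of 1 gene cannot go below 0.1, so none was run.

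Transcript lengths, GC content and sequences came from GENCODE M21 (GRCm38), matched by gene ID, and coordinates are those of the deposited mm9 table. A length was found for 94.5% of tested genes. The length trend of each library was a natural spline on log2 length over genes with a mean of at least 50, and it was subtracted before refitting.

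Genes named were Gcgr, the 15 highest and 15 lowest that passed above the median level, list members that passed, 2 examples per list by unadjusted p, and genes of known interest. Of the 56 genes that passed, 33 fall under this rule. The other 23, where described, were picked with their values in view. The members and gene lists were chosen with earlier results of these data known. Alternatives covered the pseudocount, filter, scaling, libraries, weights, variance estimation, replicate number, transcript length and GC content.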

Additional observations from a re-analysis of the deposited data

How the results depend on the processing

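The 56 genes past the threshold became 23 with a pseudocount of 10, 3 without the filter on low values, 29 with median-ratio rescaling, 16 with only the 6 libraries compared, 19 with weights per library and 1 without trend and robust estimation (2322 had an unadjusted p under 0.05). The count was 14 with the length trend removed, 14 with length and GC trends removed and 8 with knockout-labelled library 2 as its group's single library, which assumes that it varies like the other groups. Leaving out 1 library gave 1 to 82. Other settings kept more genes, with 60 at a pseudocount of 0.5, 61 with a filter at 10, 38 with quantile normalization and 43 with the GC trend removed. The 12 list members became 7, 3, 7, 6, 6 and 1 under the first 6 settings, 6, 6 and 4 under the next 3, and 1 to 19 without 1 library. The single gene near Gcgr became 0 without the filter, with the 6 libraries, without trend and robust estimation and with the length trend or both trends removed, 2 with a filter at 10, and 0 to 2 without 1 library. With the replicate block 45 genes passed, 22 higher and 23 lower, 31 of them shared. The replicate numbers showed no clear pairing of the samples. Same-number correlations were 0.04, -0.05 and -0.14 between antibody-labelled and knockout-labelled libraries. They were 0.13, 0.02 and 0.10 between antibody-labelled and wild-type libraries, and 0.05, 0.01 and -0.01 between knockout-labelled and wild-type libraries. The share of higher genes was 67.9% as deposited, 48.9% with the block, 42.9% with the length trend removed, 28.6% with both trends removed, 25% with knockout-labelled library 2 alone and 78.9% with weights.

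Of the 56 genes, 0 turned direction under any of the 23 alternatives and Gcgr alone passed under all. Of 70 named genes that had not passed, 14 passed under some alternative and 7 turned direction. Igf1 stood at -0.10 with the length trend removed, -0.0051 with the GC trend removed and -0.13 with both, and Fasn at -0.0047 with the length trend removed. With knockout-labelled library 2 alone, Slc38a4 stood at 0.032 and Gls2 at 0.084. Without 1 library, Cyp7a1 ran from -0.075 to 1.11, Fasn from -0.063 to 0.41, Igf1 from -0.059 to 0.23, G6pc from -0.41 to 0.23 and Igfbp1 from -0.79 to 0.10. Causes were not tested. Depth limits the low genes most, since 1 read was worth 4.743 normalized counts in knockout-labelled library 1 and 1.504 in the deepest library.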

Other observations

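The lowest and the highest fold change over all genes tested were those of Slc7a10 and Cfd, which did not pass. Apoa4, also given here, did not pass either and is not an extreme. All were chosen after their values were seen. Slc7a10, a transporter of small neutral amino acids, was at the floor in all 3 antibody-labelled libraries and had 45.5, 43.5 and 58.6 normalized counts in knockout-labelled libraries. Wild type held 1, 1.79 and 60.6, so that 1 wild-type library lay with the knockout-labelled group (limma adjusted p = 0.114). Cfd, the adipocyte product adipsin, had 420.2, 95.1 and 21 normalized counts in antibody-labelled libraries and 9.49, 1.72 and 33.7 in knockout-labelled libraries (log2 fold change 3.27, adjusted p = 0.286). The adipocyte markers, of which Cfd is one, summed to 17788 to 36596 normalized counts above the floor in antibody-labelled libraries. In knockout-labelled libraries they summed to 15361 to 31178. Cfd is a small part of these sums, which other members set, and whether fat tissue differed between libraries was not tested. Apoa4, an apolipoprotein of triglyceride-rich particles, had 38065, 32418 and 56981 normalized counts in antibody-labelled libraries and 190032, 209589 and 73578 in knockout-labelled libraries. Its groups did not overlap, and knockout-labelled library 3 lay closest to the antibody-labelled libraries (log2 fold change -1.79, adjusted p = 0.125).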
